A study of Ailuropoda melanoleuca with 25 samples.

Results

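Liver and kidney were set against heart, spleen, and lung in the giant panda, and the genes that both organs held above, or below, each of the 3 other tissues were described. The 10 libraries of liver and kidney were taken by their tissue label from 25 RNA-seq libraries, 1 for each of 5 tissues of 5 pandas, and the 15 libraries of heart, spleen, and lung were the comparison. The tissues came from dead animals and were frozen in liquid nitrogen. Panda 1 was a female of 27 years with ovarian cancer, and panda 2 was a female of 9 years whose cause of death is labelled ileac pssion. Pandas 3 and 4 were females and panda 5 a male, all 0.5 years old with a coronavirus infection. No animal was treated by design, and the 3 young pandas differ from the older pandas in illness and year of death as well as in age. The 5 libraries of 1 panda share that animal, so n is 5 animals for every tissue.

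A gene was called shared high when liver and kidney each exceeded heart, spleen, and lung in all 6 pairwise contrasts, each with a log2 difference above 1 and a p below 0.05 after Benjamini-Hochberg adjustment. Shared low was the mirror image, with a log2 difference below -1 in each contrast. By this rule 528 of the 18701 genes tested were shared high (2.82%) and 118 were shared low (0.631%). The deposited table gives identifiers only, and names were taken from the list of tissue-specific genes that the study chose on these same libraries. A usable symbol was found for 102 of the shared high and 14 of the shared low genes, out of 1703 named genes tested, so the share of named genes (5.989% and 0.8221%) is not independent of the pattern. The remaining 426 shared high and 104 shared low genes had no usable name, of which 60 and 5 came from the transcript assembly of the study. Values are FPKM, which are fragments on a gene relative to gene length and library depth, divided by a size factor that puts libraries on 1 scale, and are called scaled FPKM. Differences are on the scale of log2(scaled FPKM + 1), which understates the change of genes at low levels.

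Hepatocytes and the proximal tubule cells of the kidney are both polarized epithelial cells with a dense transport machinery on their apical surface. Both organs make glucose from non-carbohydrate precursors and break down amino acids, and both conjugate and export drugs and other foreign compounds. The liver in addition makes the urea cycle run, produces bile, and secretes most proteins of blood plasma, whereas the kidney filters the blood and recovers solutes from the filtrate. In bulk tissue, fewer cells of a type and less RNA per cell cannot be told apart.

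The tissue labels were set first beside marker genes. The names of these markers came from the same list of tissue-specific genes, which the study chose with these labels. Higher levels in the own tissue thus follow in part from that choice and are no independent check of the labels. The summed scaled FPKM of 10 hepatocyte markers ranged from 89362 to 397700 in the liver libraries and from 85.2 to 320 in the kidney libraries, against at most 65.1 in the others. The sum of 10 kidney tubule markers ranged from 1205 to 11271 in the kidney libraries and from 8.16 to 23.3 in the liver libraries, against at most 14.3 in the others. Cardiomyocyte markers (at least 76079 in heart and at most 43.8 elsewhere), lung epithelium markers (at least 8134 in lung and at most 98.5 elsewhere), B cell markers (at least 312 in spleen and at most 59.0 elsewhere), and T cell markers (at least 144 in spleen and at most 59.7 elsewhere) each led in their own tissue. Between 13149580 and 21383380 reads were counted on genes per library. A pair of libraries stood apart. Liver of panda 3 had a size factor of 0.210, against 0.588 to 0.676 in the other liver libraries, so that its FPKM were raised more by the scaling. Kidney of panda 4 held the tubule markers uromodulin (UMOD) at 16.9 and FXYD2 at 1036, against at least 266 and 5087 in the other kidney libraries, and it was also the kidney library nearest to the other tissues over the shared genes. Its median log2 level was 3.95 over the shared high genes (other kidney libraries 4.92 to 5.46, heart, spleen, and lung 0.97 to 1.87) and 3.53 over the shared low genes (other kidney libraries 2.11 to 2.65, heart, spleen, and lung 4.18 to 4.98).

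The named genes with the clearest separation included betaine-homocysteine methyltransferase (BHMT, ENSAMEG00000005696), which remakes methionine from homocysteine with a methyl group of betaine. In pandas 1 to 5, BHMT was at 1145, 3900.4, 2359, 2779, and 1058 scaled FPKM in the liver and at 95.5, 604, 54.9, 117, and 114 in the kidney. The 15 libraries of heart, spleen, and lung lay between 0 and 1.6 (median 0.313). All 10 liver and kidney libraries were thus far above every other library, and the kidney of panda 2 was the highest kidney library. The mean of liver and kidney exceeded that of the 3 others by 8.54 ± 0.27 (SE) on the log2 scale, and the nearest of the 6 differences was 6.25. Since these differences chose the genes, they are given as a description with no test.

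**Figure D1:**
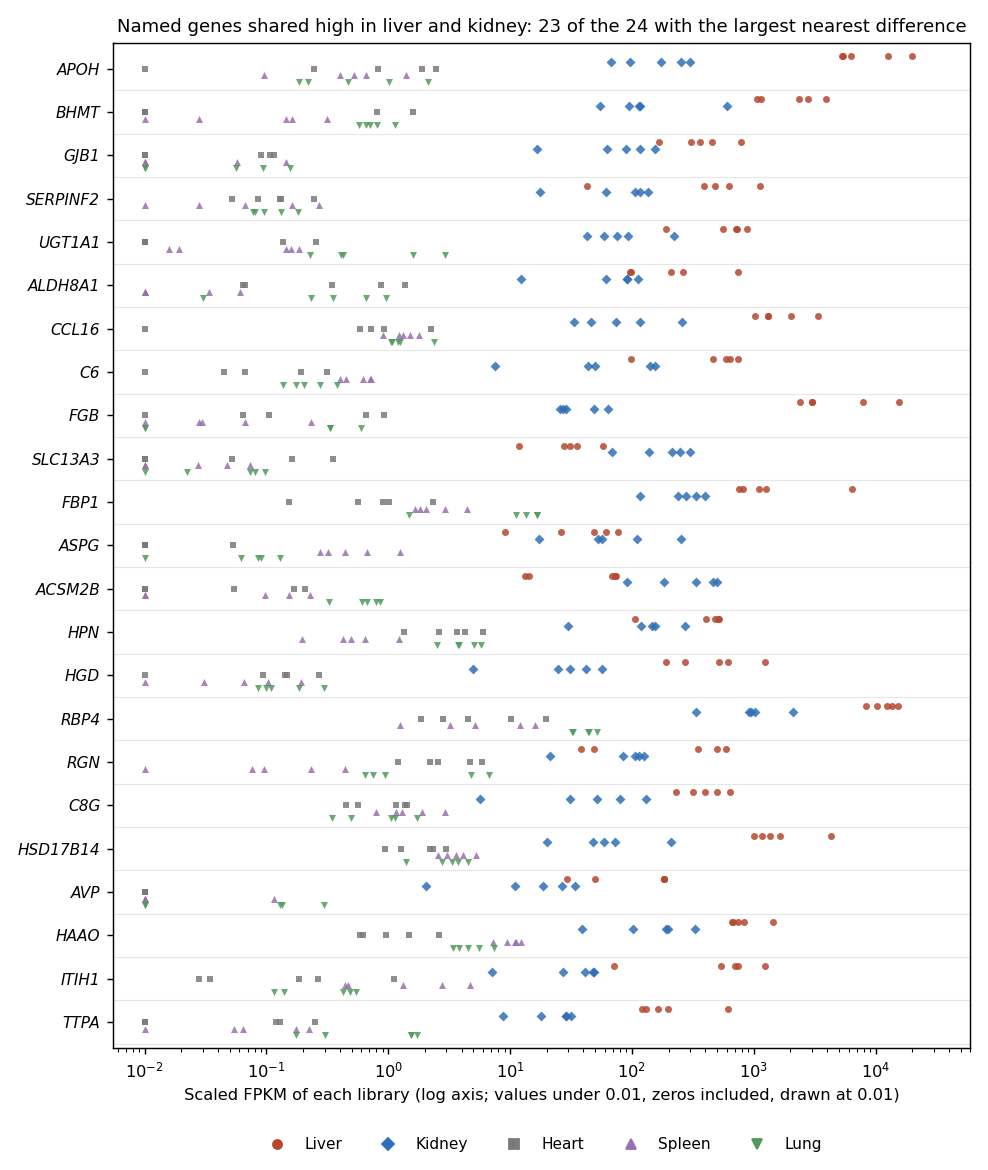
Scaled FPKM of 23 of the 24 named genes shared high with the largest nearest difference (rows) in each of 25 libraries (points, coloured by tissue, log axis). For BHMT the 10 liver and kidney libraries sit between 54.9 and 3900.4, and the other 15 at or below 1.6.

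Connexin 32 (GJB1), a gap junction protein of epithelia, was at 790.3, 450.2, 168, 303, and 360.2 in the liver and at 116, 154, 62.4, 16.6, and 89.5 in the kidney. None of the 15 others exceeded 0.156 (difference 7.26 ± 0.24), in contrast to all 10 libraries of liver and kidney. The lowest liver library (panda 3) was above the highest kidney library by a small margin, and the lowest kidney library was that of panda 4. For the sodium-coupled dicarboxylate transporter SLC13A3 the order of both organs was turned, with 57.4, 31, 11.9, 27.9, and 35.5 in the liver, 212, 300.1, 139, 68.2, and 246 in the kidney, and at most 0.352 elsewhere (difference 6.09 ± 0.20). Fructose-bisphosphatase (FBP1), an enzyme of glucose production, was at 763, 1099, 6456, 1269.7, and 812 in the liver, 276, 338, 238, 116, and 401 in the kidney, and between 0.154 and 16.6 (median 2.04) elsewhere, for a difference of 7.20 ± 0.36. Here the lung had the highest levels of the other tissues (1.48 to 16.6).

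Across the 528 shared high genes, the median difference between liver and kidney and the other tissues was 3.002, against -0.07 over all genes tested. The 10 liver and kidney libraries did not overlap the 15 others for 336 of the 528 genes (416 of all genes tested, 2.22%, did not overlap in this direction). Within the same panda, both organs were above all 3 other tissues in 5 of 5 pandas for 440 of the 528 genes (83.33%), against 751 of all genes (4.02%). Genes with no usable name were spread over the same range, with pooled differences from 1.14 to 10.81 (median 2.71), and 266 of the 426 did not overlap. The numbers without overlap and by panda follow in part from the rule that chose the genes. At the edge of the rule lay the aquaporin AQP11, with a nearest difference of 1.02, and outside of it DMXL2, with 0.96. In the pooled contrast of both organs against the 3 others, limma found 2589 genes higher (13.8%) and 2035 lower (10.9%). Without the scaling between libraries these numbers were 1474 and 4103, the higher genes fell from 55.99% to 26.43% of those called, and the median of all genes moved from -0.07 to -0.45. The shared high genes were then 316 and the shared low genes 154, or 67.23% high in place of 81.73%.

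Enzymes of amino acid and one-carbon breakdown formed the group with the most shared members among the metabolic lists. Of 33 tested, 14 were shared high (42.42%), and in the pooled contrast 31 were higher, 0 lower, and 2 not called, with a median difference of 4.199. As the study chose these names on the same libraries, the direction of this and every following list is not independent evidence. Over all named genes tested, 608 were higher, 515 lower, and 580 not called (median -0.35). The shared members did not cover whole routes. In the breakdown of tyrosine, homogentisate dioxygenase (HGD) and fumarylacetoacetase (FAH), which makes the last cut to fumarate and acetoacetate, were shared high, whereas tyrosine aminotransferase (TAT), which starts tyrosine breakdown, was not. HGD was at 191, 619.5, 1246, 514, and 270.1 in the liver, at 41.9, 30.8, 25, 4.93, and 56.9 in the kidney, and at most 0.299 in the others. TAT was at 377, 9240.5, 2041, 8473, and 487 in the liver but at 12.9, 10, 14.8, 1.72, and 13.8 in the kidney, against up to 4.01 in the others, and the kidney of panda 4 lay below all lung libraries (2 to 4.01). FAH was also measured in the heart at 12.6 to 16.3, below the 32.7 to 138 of the kidney.

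In the route from tryptophan through kynurenine, the late enzymes were shared and the first was not. Tryptophan 2,3-dioxygenase (TDO2), which opens the ring of tryptophan, was at 134 to 2237 in the liver and at 0.0843 to 0.506 in the kidney, where the others reached 0.966. Kynureninase (KYNU) was at 11.7 to 33.1 in the liver and at 0.0463 to 6.4 in the kidney, and its nearest difference of 0.86 was short of the rule. The next enzyme, 3-hydroxyanthranilate dioxygenase (HAAO), was at 659.6 to 1442 in the liver and 39.3 to 328 in the kidney, against at most 12.2 elsewhere. ALDH8A1, an aldehyde dehydrogenase further along this route, was at 97.3 to 748 in the liver and 12.2 to 113 in the kidney, against at most 1.37. The kidney thus held HAAO and ALDH8A1 above every library of heart, spleen, and lung, whereas its TDO2 lay within their range.

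Of the 4 enzymes that break down histidine, AMDHD1 alone was shared high, at 547 to 2150.4 in the liver, 13.8 to 50 in the kidney, and at most 7.11 in the others. The first enzyme, histidine ammonia-lyase (HAL), was at 1046 (mean of 5) in the liver and 3.08 in the kidney. Urocanase (UROC1) was at 85.9 in the liver, and the heart mean of 8.06 was above the kidney mean of 2.21. FTCD, the last enzyme, was at 232 in the liver and at 0.0316 in the kidney. From the urea cycle, 3 genes of the list were high in the liver, and their kidney means were near those of the other tissues. The list does not hold every enzyme of this cycle, so the cycle as a whole was not described. The mean of CPS1, which makes carbamoyl phosphate, was 762 in the liver and 0.333 in the kidney, that of OTC was 402 and 0.0296, and that of arginase (ARG1) was 9455 and 1.16, with a heart mean of 2.86. These enzymes outside the rule were named after their values were seen, to place the shared steps in their routes.

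**Figure D2:**
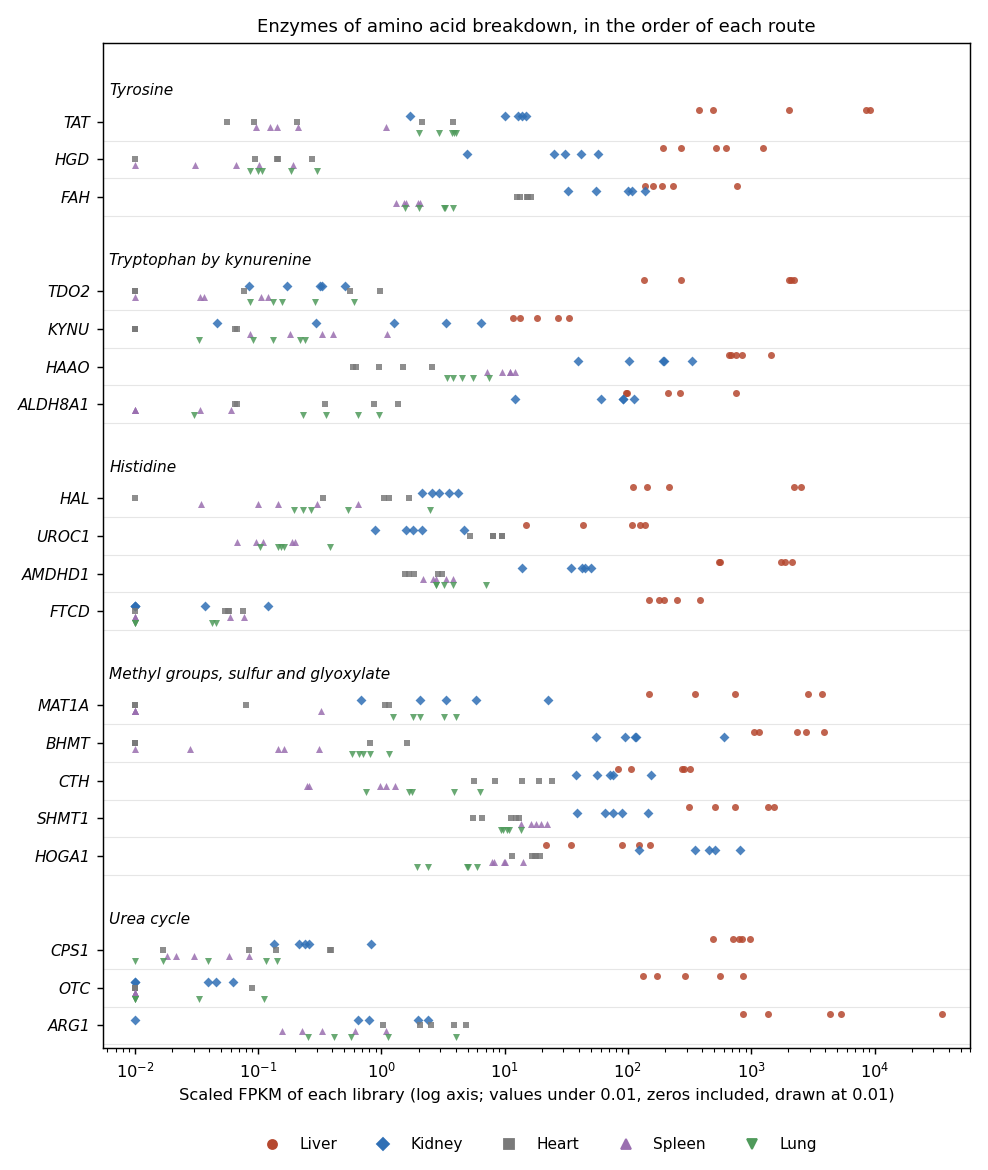
Scaled FPKM of enzymes of amino acid breakdown (rows, grouped by route) in each of 25 libraries (points, coloured by tissue, log axis). Kidney points lie between those of the liver and those of the other tissues for HGD and HAAO, and among the other tissues for TDO2, FTCD, and OTC, where no kidney library exceeds 0.506, 0.121, and 0.0631.

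Other shared members of this group had roles in methyl group, sulfur, and D-amino acid metabolism. Cystathionine gamma-lyase (CTH), which releases cysteine, ranged from 83.7 to 318 in the liver and from 38.1 to 155 in the kidney, against at most 24.4 in the others, where the heart was highest. Serine hydroxymethyltransferase 1 (SHMT1) was at 311 to 1525 and 38.4 to 147, against at most 22.2. D-amino acid oxidase (DAO) was higher in the kidney (48.2 to 215) than in the liver (2.2 to 24.3), and D-aspartate oxidase (DDO) was at 9.7 to 19.3 in the liver and 2.32 to 13.9 in the kidney. HOGA1, which splits a breakdown product of hydroxyproline, was at 122 to 812 in the kidney and 21.8 to 152 in the liver. Agmatinase (AGMAT) was at 121 to 719 in the liver and 9.21 to 24.7 in the kidney, and dopa decarboxylase (DDC) was low in both, at 1.07 to 15.2 and 2.1 to 11.7. The asparaginase gene ASPG, outside the list, was at 77.5, 61.3, 9.05, 49.1, and 26.4 in the liver and at 109, 253, 57.3, 17.1, and 53.1 in the kidney, against at most 1.24, and the liver of panda 3 and the kidney of panda 4 were the lowest of their tissues.

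In carbohydrate metabolism, 4 of 22 genes were shared high, 11 were higher in the pooled contrast, 6 were lower, and 5 were not called (median 0.83). FBP1 and the mitochondrial phosphoenolpyruvate carboxykinase (PCK2), which also serves glucose production, were among them. PCK2 was at 187 to 496 in the liver, 13.5 to 82.2 in the kidney, and at most 13.1 in the others. Regucalcin (RGN), a gluconolactonase, was at 38.4 to 596 and 21.2 to 125, against at most 6.68. Myo-inositol oxygenase (MIOX), an enzyme of the kidney cortex that degrades inositol, was at 195 to 1795 in the kidney and at 2.8 to 33.5 in the liver, with the others at or below 3.24. The liver of MIOX overlapped the other tissues, and its nearest difference of 1.73 was 0.39 without the scaling. The 6 genes lower in the pooled contrast included the muscle forms of glycolysis and glycogen enzymes, such as PGAM2 and PYGM, whose means were 1303 and 187 in the heart.

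Among genes of fatty acid, bile acid, and lipoprotein metabolism, 8 of 31 were shared high, 27 were higher in the pooled contrast, 3 were lower, and 1 was not called (median 3.03). The medium-chain acyl-CoA synthetase ACSM2B was higher in the kidney, at 90.5 to 497, than in the liver, at 13.2 to 74.1, and the others reached 0.851. Microsomal triglyceride transfer protein (MTTP), which loads lipid onto apolipoprotein B, was at 15.7 to 159 in the liver and at 2.84 to 17.6 in the kidney, against at most 0.246. Its partner APOB was at 354 in the liver but at 0.505 in the kidney (means of 5). The peroxisomal oxidase ACOX2, which shortens bile acid precursors, was at 118 to 331 and 5.03 to 17.9, against at most 1.24. PNPLA3, a lipase of lipid droplets, was higher in the kidney (22 to 108) than in the liver (0.394 to 3.96). The elongase of polyunsaturated fatty acids ELOVL2 was at 10.7 to 40.1 in the liver and 0.975 to 3.17 in the kidney, and ACSM3, another acyl-CoA synthetase, at 1.82 to 13.4 and 4.9 to 37.6. TTPA, the carrier that retains vitamin E in the liver, lay outside the list and was at 121 to 615 and 8.75 to 31.4, against at most 1.73.

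Genes that oxidize and conjugate drugs and steroids gave 4 shared members of 24, with 20 higher in the pooled contrast, 2 lower, and 2 not called (median 2.54). UGT1A1, which couples bilirubin to glucuronic acid, was at 875, 732, 189, 561, and 718 in the liver, 58.9, 223, 92.2, 42.9, and 74.8 in the kidney, and between 0 and 2.9 (median 0.159) in the others (difference 7.35 ± 0.24). The 17-beta-hydroxysteroid dehydrogenase HSD17B14 was at 999.9 to 4336 and 20 to 209, against at most 5.23. CYP2J2, a cytochrome P450 of arachidonic acid, was at 27.5 to 69.8 and 3.08 to 8.34, and PBLD at 0.57 to 15.5 and 23.2 to 145. Among P450 genes outside the rule, CYP2E1 was at 1641 in the liver against 0.196 in the kidney, and CYP24A1, which inactivates vitamin D, was at 97.4 in the kidney against 0.0128 in the liver (means of 5). UGT1A1, ACSM2B, CYP2J2, SERPINA1, and the keratin KRT8 belong to families of similar genes or share exons with neighbours. Reads that match more than 1 such gene may have been miscounted or not counted.

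Transport across the apical and basal membranes was the next group. Of 89 solute carriers, 11 were shared high (12.36%), 64 were higher in the pooled contrast, 7 were lower, and 18 were not called, with a median of 2.11. Of the 11, 5 were higher in the kidney and 4 in the liver. SLC22A18, an organic cation transporter, was at 52.2 to 126 in the liver and 3.91 to 35.8 in the kidney, against at most 1.77. SLC51B, a subunit of the basolateral exporter of bile salts and steroids, was at 162 to 470.1 and 7.06 to 84.6, against at most 4.95. SLC16A12, a creatine transporter, was at 70.1, 54.1, 11.9, 47.6, and 42.5 in the liver and at 32.4, 26.7, 36.4, 8.95, and 33.9 in the kidney, and the glutamate transporter SLC1A1 was at 10.6 to 23.4 and 10.2 to 50.6. The amino acid transporters SLC38A3 and SLC6A20 were at 18.3 to 110.2 and 13.8 to 125 in the kidney and at 197 to 529 and 0.612 to 4.1 in the liver. SLC17A4 ranged over 9.81 to 58.6 in liver libraries and 0.452 to 5.44 in kidney libraries. The mitochondrial carrier SLC25A35 was at 3.92 to 14 and 18.3 to 57.2. At the other end, the urate transporter SLC22A12 and the organic anion transporter SLC17A3 were at 32.5 to 324 and 20.5 to 188 in the kidney but at 0.154 to 8.55 and 0.462 to 3.93 in the liver. Of 9 ABC transporters, 1 was shared high and 6 were higher in the pooled contrast, with 0 lower and 3 not called (median 1.65). This was ABCC2, the apical exporter of conjugates, at 20.1 to 119 in the liver, 1.59 to 15.8 in the kidney, and at most 1.38 in the others.

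Genes of the apical membrane, cell junctions, and keratins gave 9 shared members of 34 (26.47%), with 28 higher in the pooled contrast, 1 lower, and 5 not called (median 2.48). GJB1 was the one higher in the liver, and 7 were higher in the kidney. PDZK1, the scaffold beneath apical transporters, was at 76.9 to 560.2 in the kidney, 5.68 to 97.5 in the liver, and between 0.924 and 2.49 (median 1.37) in the others. Amnionless (AMN) was at 15.5 to 363 in the kidney and 2.89 to 23.7 in the liver, against at most 0.234, whereas its partner in the uptake receptor, cubilin (CUBN), was at 35 in the kidney and 0.101 in the liver (means of 5). The microvillus genes CDHR5 and villin (VIL1) were at 11.2 to 143 and 5.49 to 43.7 in the kidney and at 0.532 to 16.9 and 0 to 11.1 in the liver. The tight junction claudin CLDN2 was at 46.1 to 226 in the kidney and 0.231 to 16.9 in the liver, the kidney cadherin CDH16 at 58.3 to 606 and 1.65 to 54.2, and the kinesin KIF12 at 9.89 to 152 and 0 to 5.56. The nearest differences of these genes were all of the liver, at 2.26 for CDHR5, 1.73 for VIL1, 1.64 for CLDN2, 1.73 for CDH16, and 1.15 for KIF12. The lowest liver libraries of VIL1 and KIF12, at 0, were thus not above the other tissues. Keratin 8 (KRT8) was at 535 to 1112 in the liver and 78.4 to 815 in the kidney, and reached 335 in the other tissues, so its libraries overlapped.

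Of 50 transcription factors, 2 were shared high (4%, between the 2.82% of all genes and the 5.989% of named genes), 19 were higher in the pooled contrast, 21 were lower, and 10 were not called, and the median was -0.54. NR1H4, the bile acid receptor FXR, was at 46, 39.5, 248, 47.5, and 113 in the liver, 27.6, 22, 19.5, 5.86, and 59.2 in the kidney, and between 0 and 1.69 (median 0.211) in the others (difference 4.90 ± 0.24). The kidney of panda 4 was the lowest of the 10 and still above every other library. The repressor RIPPLY1 was at 13.8 to 78.1 in the liver and 0.121 to 9.15 in the kidney, and the latter overlapped the other tissues. Other factors outside the rule were FOXA3 at 141 in the liver against 0.0354 in the kidney (means of 5) and PAX8 at 67.7 in the kidney against 0.24 in the liver.

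Plasma proteins of hepatocytes gave 18 shared members of 40 (45%), and all 40 were higher in the pooled contrast (median 5.01). All 18 were higher in the liver than in the kidney. Apolipoprotein H (APOH), a phospholipid-binding protein, was at 5277 to 19702 in the liver and at 67.4 to 300.2 in the kidney, with at most 2.45 elsewhere. The retinol carrier RBP4 was at 12405, 13726, 8303, 15380, and 10268 in the liver, 944, 2089, 337, 920.0, and 1022 in the kidney, and between 1.24 and 51.2 (median 12) elsewhere (difference 8.06 ± 0.27). The plasmin inhibitor SERPINF2 was at 1125, 478, 42.8, 387, and 624 in the liver and at 117, 135, 61.5, 17.8, and 105 in the kidney, so 1 liver library lay among the kidneys, and no other library exceeded 0.269. The complement genes C6 and C8G were at 7.58 to 156 and 5.61 to 130.5 in the kidney, whereas C8A and C8B, which join C8G in the same complement protein, were at 0.0249 and 0 in the kidney (means of 5) and at 495 and 287 in the liver. Of the fibrinogen genes, FGB was at 25.5 to 63.6 in the kidney and 2396 to 15626 in the liver, and FGA and FGG were at 0.901 and 0.75 in the kidney (means of 5). ITIH1, which binds hyaluronan, was at 71.2 to 1233 and 7.13 to 48.5, and kininogen (KNG1) at 2317 to 3557 and 28.7 to 194. The coagulation factor subunit F13B, the protease HABP2, and the serpin SERPINF1 were at 0.234 to 3.09, 0.619 to 10.3, and 9.01 to 27.7 in the kidney and at 28.3 to 220.1, 57.9 to 285, and 45 to 462 in the liver. The chemokine CCL16, outside the list, was at 1030.3 to 3348 in the liver and 33.6 to 258 in the kidney, against at most 2.37. The serine protease hepsin (HPN) was at 106 to 516 and 30.1 to 272, against at most 5.96. The gene that the list of the study names AVP, the vasopressin precursor (ENSAMEG00000011075), was at 29.1 to 184 in the liver and 2.04 to 34 in the kidney, against at most 0.299. This name was not found in the RefSeq table used to check symbols. The same held, among others, for ACSM2B, UGT1A1, CYP2J2, SERPINA1, TF, KIF12, and FXYD2.

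Some of the plasma protein levels in the kidney were small beside the liver. The kidney mean of the 10 hepatocyte markers was 0.005005% to 0.6205% of the liver mean, with transferrin (TF) highest, and the corresponding medians were 0.0369% in the kidney, 0.0139% in the heart, 0.00483% in the spleen, and 0.0230% in the lung. Among the 368 shared high genes with the higher mean in the liver was TF itself, which sets that highest marker value. Beside TF, 8 lay at or under this value, among them AMBP, CRP, FGB, GC, HRG, SERPINA1, and SERPINC1, and the others lay above it. The median kidney level over all 368 was 44.4% of the liver. TF and SERPINA1 are hepatocyte markers and shared high members at the same time. In the reverse direction, the liver held 0% to 2.48% of the kidney level of the tubule markers. Of the 160 shared high genes with the higher mean in the kidney, FXYD2, MIOX, SLC17A3, and SLC22A12 lay at or under the highest of these, and 156 lay above it. FXYD2 is itself a tubule marker, so that its place, like that of SERPINA1, was fixed by the choice of markers. The median liver level over all 160 was 62.0% of the kidney. The part of hepatocyte RNA in the kidney values, or of tubule RNA in the liver values, was not tested.

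**Figure D3:**
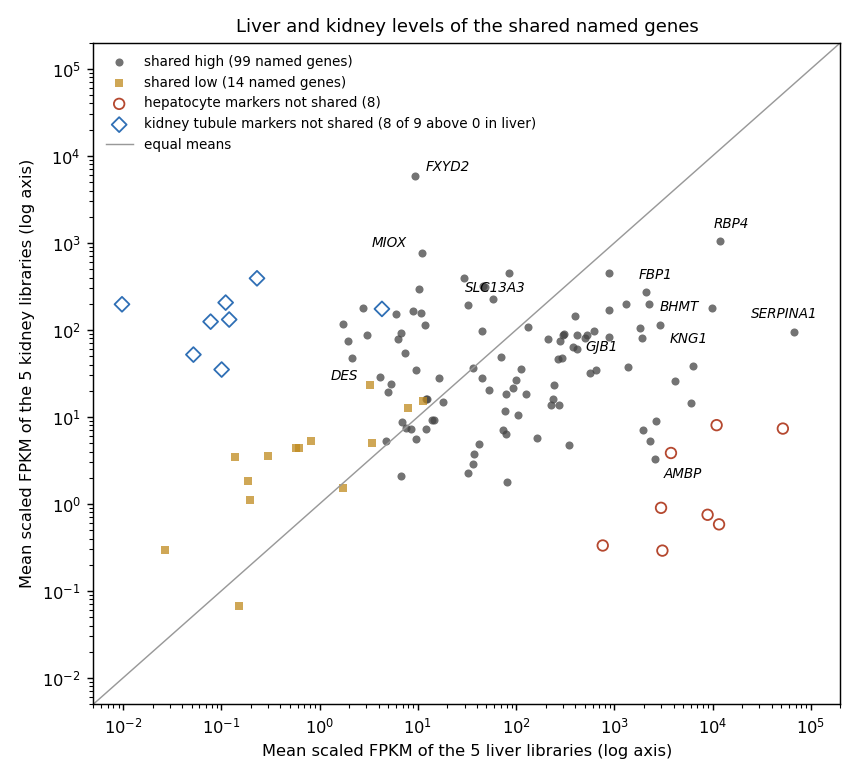
Mean scaled FPKM in the kidney against that in the liver (both log axes, n = 5 each) for 99 named shared high (circles) and 14 shared low (squares) genes and for hepatocyte and kidney tubule markers outside the rule (open symbols). Most shared high genes lie in the band between both marker groups, RBP4 with a kidney mean of 1063 lies above the open hepatocyte markers, and AMBP with 3.24 lies among them.

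Liver and kidney were then compared with each other in the same fit, a contrast that did not enter the rule. Of the 528 shared high genes, 168 were higher in the liver and 57 higher in the kidney by a log2 difference above 1 at an adjusted p below 0.05 (limma), where 13.1% and 14% of all genes tested were. For 268 genes the adjusted p was 0.05 or above, which does not show that the levels were equal. With panda 1 left out, the genes higher in the kidney fell to 37, and with quantile normalization 121 were higher in the liver and 70 in the kidney. Among the 102 named genes, 58 were higher in the liver, 25 higher in the kidney, and 19 in neither by this rule. Among the 426 without a usable name, 110 were higher in the liver and 32 in the kidney. The study chose the names by differences between tissues on these same libraries. The adjusted p-values of the named genes that follow are thus not independent of that choice. Differences toward the liver were 3.88 ± 0.42 for BHMT (SE, adjusted p = 2e-07), 2.36 ± 0.37 for GJB1 (adjusted p = 2.7e-05), and 2.48 ± 0.55 for FBP1 (adjusted p = 0.0011). Differences toward the kidney were -2.51 ± 0.31 for SLC13A3 (adjusted p = 1.2e-06), -2.79 ± 0.42 for ACSM2B (adjusted p = 2e-05), -3.99 ± 0.42 for DAO (adjusted p = 1.4e-07), and -3.24 ± 0.53 for PDZK1 (adjusted p = 4.2e-05). The difference did not pass the test for ASPG (-0.91 ± 0.46, adjusted p = 0.115), SLC16A12 (0.63 ± 0.39, adjusted p = 0.197), or DDC (-0.48 ± 0.37, adjusted p = 0.305). Within each panda, ASPG was higher in the kidney than in the liver in 4 of 5 pandas, and BHMT was higher in the liver in 5 of 5.

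Shared high genes outside the lists included carbonic anhydrase 2 (CA2), at 78.3 to 437 in the kidney and 3.78 to 19.3 in the liver, transferrin receptor 2 (TFR2), at 24.2 to 795 in the liver and 1.2 to 11.3 in the kidney, and ethanolamine kinase 2 (ETNK2), at 77.1 to 175 and 39 to 226. Prostaglandin reductase 1 (PTGR1) was at 430.0 to 2580.5 in the liver and 77.4 to 544 in the kidney, against at most 42.5. Other members were low in both organs, such as the synaptic and epithelial scaffold SHANK2 at 1.36 to 15.6 and 1.36 to 13.1 and the zinc receptor GPR39 at 2.78 to 16.5 and 1.4 to 10.4. SFRP5, a secreted Wnt antagonist, was the shared high member of the matrix and growth factor list, at 143, 186, 123, 17.5, and 104 in the kidney and 16.8, 13, 1.73, 13.5, and 14.8 in the liver, against up to 7.52, and the liver of panda 3 lay within the other tissues. Its nearest difference of 1.67 was 0.49 without the scaling, and the call was lost.

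Shared low genes were fewer, with a median difference of -2.11 over the 118. The 104 without a usable name ranged from -4.09 to -1.06. The 10 libraries of liver and kidney lay below all 15 others for 37 of the 118 genes (86 of all genes tested, 0.46%), and both organs were below the 3 other tissues in 5 of 5 pandas for 84 (71.19%, against 374 or 2% of all genes). FAM189A2, at -1.01, was the named member nearest to the threshold, and AP1S2, at -0.995, lay just outside. Desmin (DES), the intermediate filament of muscle, had the largest nearest difference (-2.91) and a pooled difference of -6.43 ± 0.40 (SE). It was at 3.92, 1.58, 3.62, 4.83, and 2.36 in the liver, 1.09, 98.3, 1.3, 10.5, and 3.94 in the kidney, and between 32.7 and 33374 (median 127) in the others, with 5990.5 to 33374 in the heart, 56.9 to 288 in the spleen, and 32.7 to 102 in the lung. The kidney of panda 2 lay within the range of the spleen and lung, and the other 9 libraries were below all 15 others. Synemin (SYNM), which binds desmin filaments, was at 0.38 to 1.56 in the liver and 3.52 to 7.58 in the kidney, against 155 to 806 in the heart, 14.3 to 32.6 in the spleen, and 9.33 to 20.8 in the lung, with no overlap.

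**Figure D4:**
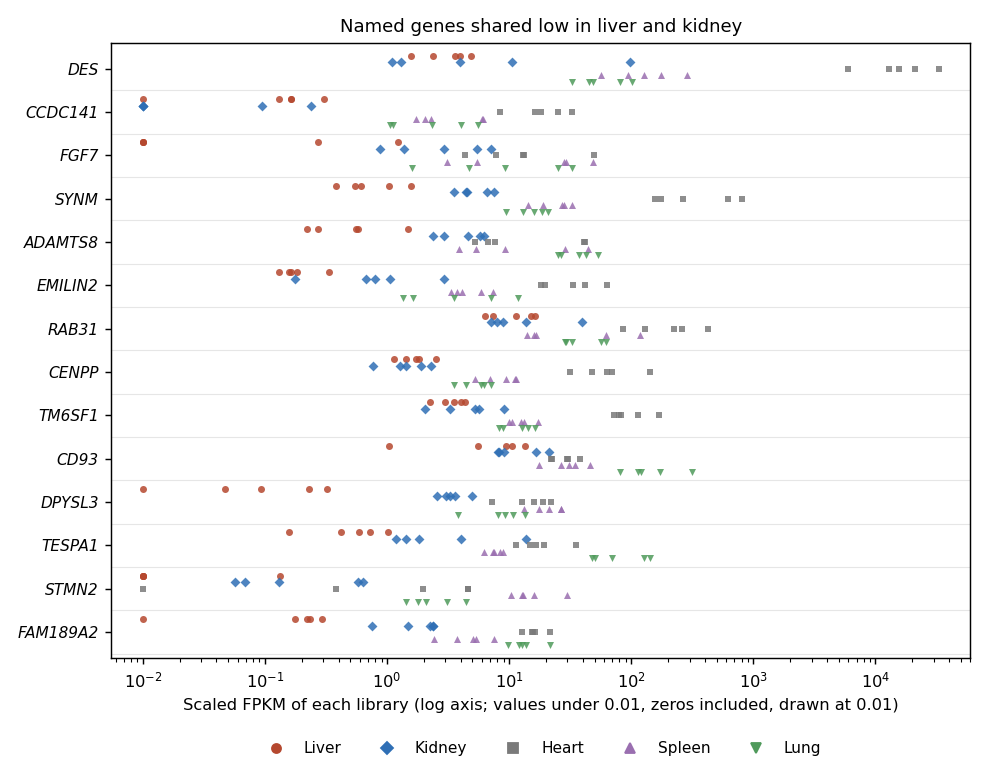
Scaled FPKM of the 14 named genes shared low (rows) in each of 25 libraries (points, coloured by tissue, log axis). For SYNM all liver and kidney libraries lie at or below 7.58 and all others at or above 9.33.

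Of 45 genes of the extracellular matrix, growth factors, and smooth muscle, 5 were shared low (ADAMTS8, DES, EMILIN2, FGF7, and SYNM) and 1 was shared high, and in the pooled contrast 30 were lower, 3 higher, and 12 not called (median -1.54). FGF7, a growth factor that mesenchymal cells supply to epithelia, was at 0.271, 0, 0, 0, and 1.22 in the liver, 0.88, 1.37, 7.1, 5.41, and 2.91 in the kidney, and between 1.59 and 49.5 (median 12.9) in the others, so the kidneys overlapped the other tissues. ADAMTS8, a secreted metalloprotease, was at 0.22 to 1.47 in the liver and 2.37 to 6.24 in the kidney, and between 3.89 and 53.5 (median 26.7) in the others. EMILIN2, a glycoprotein of elastic fibres, was at 0.131 to 0.337 and 0.175 to 2.9, against between 1.35 and 63.5 (median 7.05). FGF7, ADAMTS8, and RAB31, a small GTPase of vesicle transport, lost the call without the panda as a block, and these and EMILIN2, DPYSL3, TESPA1, and CD93 lost it when 1 panda or 1 library was left out, with nearest differences then between -0.83 and -0.98. FGF7 and ADAMTS8 also lost the call without the scaling, where the nearest difference of ADAMTS8 was -0.75.

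CD93, a receptor of endothelial cells, was the shared low member of 20 endothelial and mural genes. It was at 10.5, 13.5, 1.04, 9.49, and 5.5 in the liver, 16.6, 8.12, 9.1, 21.3, and 8.3 in the kidney, and between 17.6 and 316 (median 34.7) in the others, with the lung highest (80.3 to 316), and its nearest difference was -0.33 without the scaling. Of this list 11 were lower, 2 higher, and 7 not called in the pooled contrast (median -1.23). CCDC141 was at most 0.303 in liver and kidney and between 1.06 and 33 (median 5.57) in the others. The centromere gene CENPP was at 1.14 to 2.53 in the liver and 0.762 to 2.28 in the kidney, against between 3.5 and 143 (median 9.5), and TM6SF1 at 2.23 to 4.36 and 2.03 to 9.14, against between 8.29 and 169 (median 14.2). With quantile normalization the nearest difference of CENPP was -0.91. DPYSL3, a cytoskeletal protein of neurons and muscle, was at 0 to 0.324 in the liver and 2.54 to 4.94 in the kidney, TESPA1, of T cell signalling, at 0.158 to 1.02 and 1.19 to 13.7, and RAB31 at 6.34 to 16.4 and 7.09 to 39.3. STMN2, at most 0.633 in liver and kidney, and FAM189A2, at most 2.4, completed the 14.

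Lymphocyte and sarcomere genes gave 0 shared members. Of 38 lymphocyte genes, 28 were lower, 0 higher, and 10 not called in the pooled contrast (median -1.32), and of 29 sarcomere genes, 28 were lower, 0 higher, and 1 not called (median -2.70). The low sarcomere values were against the heart, where each difference of liver and kidney was -3.69 or lower. Against spleen and lung none was below -1.82 (kidney minus lung of NEBL), and some were above 0, such as 3.46 for kidney minus spleen of MYL3. The immunoglobulin gene IGHM had its highest mean in the spleen (4301) and its lowest in the heart (4.4), with 26.1 in the liver and 7.9 for kidney libraries. In the contrast of liver and kidney, 0 of the 118 shared low genes were higher in the liver and 24 higher in the kidney. Over all genes tested these shares were 13.1% and 14%. For 87 of the 118 the test was not passed at an adjusted p below 0.05 (limma).

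The same rule was applied to each of the 10 pairs of tissues. Liver and kidney had 528 shared high genes, spleen and lung 505, and the next pair, heart and liver, 178. Lung and kidney had 149, heart and kidney 136, heart and lung 92, liver and spleen 70, liver and lung 69, spleen and kidney 63, and heart and spleen 45. At a log2 difference above 2, liver and kidney had 249 and spleen and lung 74. In the direction of lower expression, spleen and lung had 502 shared genes and liver and kidney 118. The order of the pairs depended on the scaling. With quantile normalization, spleen and lung had 570 shared high genes and liver and kidney 490, followed by heart and kidney (154), lung and kidney (131), heart and lung (105), and heart and liver (95). The pairs share libraries, so these numbers are a description.

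**Figure D5:**
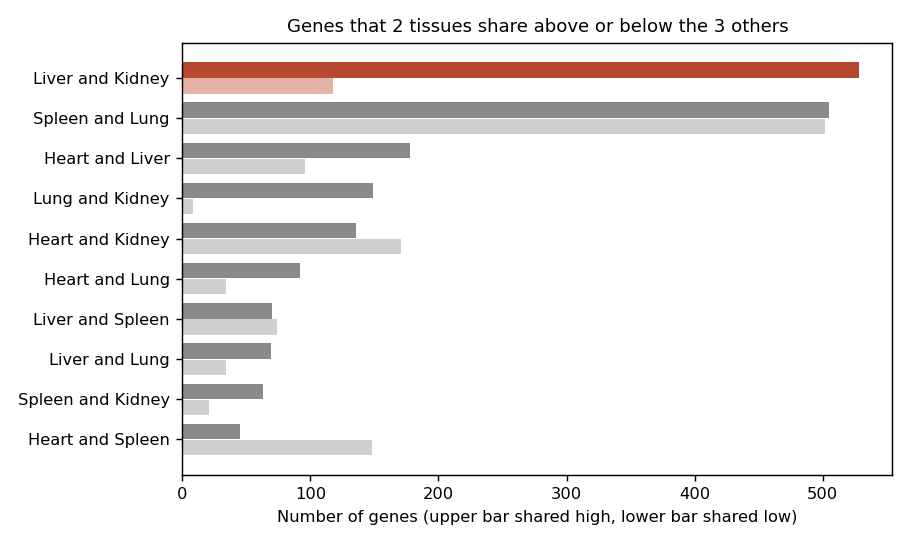
Number of genes (horizontal axis, bars from 0) shared high (upper bar) and shared low (lower bar) for each pair of tissues against the 3 others. Liver and kidney (red) have 528 shared high and 118 shared low genes, and spleen and lung have 505 and 502.

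The contrast of liver and kidney against the other tissues was lastly compared between the young pandas (3 to 5) and the older pandas (1 and 2). With limma 0 genes passed an adjusted p below 0.05 (smallest 1), and 230 of 18701 had an unadjusted p below 0.05 (1.23%), of which 42 were shared high (7.95% of the 528). With the kidney of panda 1 or of panda 5 left out, 2 and 5 genes passed. Age, illness, and the time of death cannot be told apart here.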

How the data were processed

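Heart, liver, spleen, lung, and kidney of 5 giant pandas gave 25 libraries. Per the methods of the study, the authors sequenced libraries made with a NEBNext Ultra RNA kit, aligned paired-end reads to the genome ailMel1 with HISAT2, added transcripts assembled with Cufflinks from all libraries, used HTSeq (union mode, default settings) to count the reads of each gene, and deposited FPKM of 25376 genes with no normalization stated between libraries. The authors used DESeq for pairwise comparisons. How RNA was selected is not given in the sources used here.

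The deposited FPKM were divided by median-of-ratios size factors from 13956 genes above 0 in every library. Genes with a mean deposited FPKM above 1 in at least 1 tissue (18701) were tested on log2(scaled FPKM + 1) in R 4.3.3 by limma 3.58.1 (trended prior variance), with tissue and panda as terms, and all libraries in 1 fit (16 residual degrees of freedom). Adjusted p-values are Benjamini-Hochberg over the genes tested. Labels give libraries of the same number the same sex, age, and date and cause of death, so the numbers were taken as pandas. After tissue means were removed, same-number pairs correlated at 0.0467 to 0.540 (median 0.373, 49 of 50 above 0.1), and pairs of different numbers at -0.491 to 0.379 (median -0.116).

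Whole reads, to within 0.05 reads, were recovered from the FPKM steps for all 24207 genes above 0 in a library (100% of them), and limma-voom on these reads was an alternative. The scripts were tested on simulated data with changes planted in liver and kidney and no other tissue differences. Of 50 genes each planted at a log2 difference of 3, 2, -2, and -3, the shared rule found 45, 23, 23, and 44. It called 0 of 16414 genes with no planted change. The median difference was 2.98 for genes planted at 3 and -2.47 for those planted at -3. FPKM values are limited by depth, with between 13149580 and 21383380 reads on genes per library.

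The members and lists were chosen with earlier results of these data known. Symbols came from the list of tissue-specific genes of the study (1778 identifiers with a name, 74 of them LOC), and of the other names 1564 are spelled as a symbol of the RefSeq assembly ASM200744v3. The 140 others include ACSM2B, UGT1A1, CYP2J2, SERPINA1, TF, KIF12, and FXYD2. The spelling of 1 symbol was corrected (SH3BGRL2) and 1 was left out. Values were given for the 24 shared high and 12 shared low named genes with the largest nearest difference and up to 4 shared members of each list. Other genes, further list members included, were named after their values were seen. Alternatives were quantile normalization, TMM factors, no scaling, a pseudocount of 0.1, other filters, no panda block, other thresholds, and each library or panda left out. A few genes are not reported here, and the figures leave them out. Sequences and coordinates were not analysed here. Figures were drawn with matplotlib.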

Additional observations from a re-analysis of the deposited data

Results flagged for a closer look

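Among 110 groups of 5 libraries (52 named genes, the size factors, and the median levels of the shared high and low genes, each in liver and in kidney, on the log2 scale), 14 held a library whose gap to the nearest other, over the range of all 5, was above Dixon's critical value of 0.71. Chance flags about 1 group in 20.

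The liver of panda 3 was apart in 7 genes beside its size factor of 0.2097 (other livers 0.588 to 0.676). It was low for SFRP5 (1.733, others 12.97 to 16.8), HPN (105.6, others 403 to 516), ABCC2 (20.1, others 80.6 to 119), C6 (98.8, others 463 to 741), and SLC16A12 (11.94, others 42.5 to 70.1), and high for FBP1 (6456, others 763 to 1270) and EMILIN2 (0.337, others 0.131 to 0.183). These EMILIN2 levels were low, and division by the small size factor raised the value of panda 3 more than those of the other livers. Without this library 541 genes were shared high, 501 of them among the 528, and 117 were shared low.

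The kidney of panda 4 was apart in 6 genes, always as the lowest. These were SFRP5 (17.53, others 104 to 186), SLC22A18 (3.91, others 21.6 to 35.8), ALDH8A1 (12.2, others 60.8 to 113), ACOX2 (5.031, others 14.5 to 17.9), RGN (21.18, others 84.2 to 125), and SLC16A12 (8.947, others 26.7 to 36.4). Without this library 569 genes were shared high and 156 shared low, which were the highest numbers with any single library left out.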

How the results depend on the processing

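Adding the panda as a block changed little. Without it 503 genes were shared high and 96 shared low, all among those with the block, and FGF7, ADAMTS8, and RAB31 lost the call. No direction turned for the 52 genes of the naming rule or the list medians under the alternatives run, and genes named outside the rule were not run under them. Without scaling 5 of the 52 lost the call. Quantile normalization gave 490 shared high (463 of the 528) and 149 shared low genes, with 2092 genes higher and 2181 lower, and TMM factors 536 and 112. Without scaling, 1474 genes were higher, 4103 lower, and 316 shared high, of which 296 were among the 528. A pseudocount of 0.1 gave 3462 higher, 3947 lower, and 232 shared low genes, and limma-voom on the recovered reads gave 3667, 4029, and 268. The excess of higher over lower genes thus turned under quantile normalization, no scaling, this pseudocount, and limma-voom, as it did by the adjusted p alone. All 528 and 118 genes were among those that limma-voom called. Beyond a log2 difference of 2, 902 genes were higher, 332 lower, 249 shared high, and 7 shared low, and by the adjusted p alone 5835 were higher, 6674 lower, and 373 shared low. At that difference of 2 the other pairs had 20 (heart and liver), 9 (heart and spleen), 14 (heart and lung), 36 (heart and kidney), 17 (liver and spleen), 21 (liver and lung), 74 (spleen and lung), 14 (spleen and kidney), and 40 (lung and kidney) shared high genes, and quantile normalization left heart and liver 95 and gave spleen and lung 570, more than the 490 of liver and kidney. Quantile medians were 2.56 for the fatty acid list, 0.44 for carbohydrate metabolism, and 4.46 for plasma proteins.

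With 1 library or panda left out, shared high genes numbered 462 to 569, shared low 88 to 167, pooled higher 2482 to 2778, and pooled lower 1927 to 2203. Shared high genes numbered 149 to 177 for those higher in the liver and 37 to 75 for those higher in the kidney, with 121 and 70 under quantile normalization. Between young and older pandas 0 to 5 genes passed with 1 library left out, and no panda was left out there. For each of 52 named genes, the call was checked only in the leave-out fit with its smallest nearest difference, and 45 kept it there. Some alternatives (the block and leave-outs for liver against kidney, TMM and unscaled list medians) were chosen after seeing the data. The tissues came from 5 animals of unlike age and illness, and names cover few of the genes.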
